A study of Rattus norvegicus with 20 samples.

Results

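The response of the dentate gyrus to stimulation that was shared by an early and a late time point was described, by comparing all 10 stimulated rats with all 10 sham-operated rats while the day of tissue collection was held as a covariate. The members were chosen by the labels of treatment and day alone, and they comprised 20 of the 20 rats with mRNA arrays. Adult male Sprague-Dawley rats received an electrode in the left lateral nucleus of the amygdala. The stimulated rats received electrical stimulation for a set time, which was extended when status epilepticus had not begun, status epilepticus was later stopped with diazepam, and the left dentate gyrus was taken at 7 d (5 rats) or 30 d (5 rats). The sham-operated rats carried the electrode, were not stimulated, and were taken at the same times (5 rats at 7 d and 5 rats at 30 d). The labels name no transgene or mutation in any rat. The stimulated rats combined status epilepticus, diazepam and the spontaneous seizures that followed, so that the effects of these cannot be told apart from the comparison with sham-operated rats. Each rat gave 1 array and was a separate animal, so the p-values measure the spread between animals.

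The dentate gyrus is the entry station of the hippocampus, and its granule cells receive the perforant path and send mossy fibres to hilar neurons and to field CA3. Status epilepticus is known to injure hilar neurons, to activate microglia and astrocytes, to drive sprouting of mossy fibres and to disturb the birth of granule neurons. Microglia, the resident macrophages of the brain, carry receptors for complement fragments and present antigen on MHC class II molecules when activated, while reactive astrocytes build up intermediate filaments such as glial fibrillary acidic protein.

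Expression was measured as the log2 intensity of each probe set after normalization by RMA, and a change is the mean of stimulated rats minus that of sham-operated rats on this log2 scale. A gene was said to rise or fall when its adjusted p in limma was under 0.05 over 15800 probe sets of 14586 genes. The median log2 intensity of the arrays lay between 5.22 and 5.31, and the mean correlation of an array with its own group lay between 0.9902 and 0.9957. Of 18 listed markers of mature granule cells, 16 were measured, 1 lay at the background and 1 had no usable probe set. The 2 arrays of lowest correlation were those of stimulated 7 d rat 5 and sham-operated 30 d rat 3. Wfs1, a marker of CA1 neurons, exceeded a log2 intensity of 8.5 in stimulated 30 d rats 4 and 5 and in sham-operated 30 d rat 2. Ttr, the transthyretin of the choroid plexus, exceeded 6 in stimulated 7 d rats 2 and 5 and in stimulated 30 d rat 5, and in 0 sham-operated rats. In tissue RNA of this kind fewer cells of a type and less RNA per cell cannot be told apart.

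Stimulation was followed by a broad shift of expression that ran the same way at both times. With both times pooled, 893 probe sets of 852 genes rose (5.65% of those tested) and 712 probe sets of 686 genes fell (4.51%). The change exceeded 1 on the log2 scale in 26 probe sets that rose (0.165%) and in 5 that fell (0.0316%). All 10 stimulated rats lay above all 10 sham-operated rats in 80 probe sets (0.506% of those tested) and below them in 59 (0.373%). With each gene at 1 probe set, 5.77% of the 14586 genes rose and 4.59% fell, and these are the shares beside which the counts of the gene lists below stand. Leaving out the 3 stimulated rats with high Ttr gave 629 probe sets that rose and 473 that fell.

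To separate a lasting change from a change carried by one time point, a gene was taken to move the same way at both days when it passed the pooled threshold and had an unadjusted p under 0.05 with the same sign at 7 d and at 30 d. This was met by 561 probe sets of 541 genes that were higher (3.55% of those tested) and by 443 probe sets of 429 genes that were lower (2.8%). All 5 stimulated rats lay above all 5 sham-operated rats at each time in 142 probe sets (0.899%) and below them at each time in 106 (0.671%), and in 0 did the groups lie apart in opposite ways at the 2 times. None of the 1605 probe sets past the pooled threshold (10.2% of those tested) had opposite signs at the 2 times. Since the pooled change is the average of both changes, this is in part set by the threshold. The 2 times used different rats, so the values found at 7 d could be read again at 30 d. Of 635 probe sets that rose at 7 d (4.02% of those tested), 610 were also above the sham-operated rats at 30 d, and of 389 that fell at 7 d (2.46%), 364 were also below them at 30 d, whereas 64.6% of all probe sets had the same sign at both times. At 30 d itself 132 probe sets rose (0.835%) and 142 fell (0.899%). The median change of the 635 was 0.40 at 7 d and 0.21 at 30 d, and that of the 389 was -0.32 at 7 d and -0.20 at 30 d. These probe sets had been chosen by their values at 7 d, so that only those at 30 d were free of the choice. Pooling both times lowered the median standard error of a change to 0.0495, against 0.0700 at a single time.

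**Figure D1:**
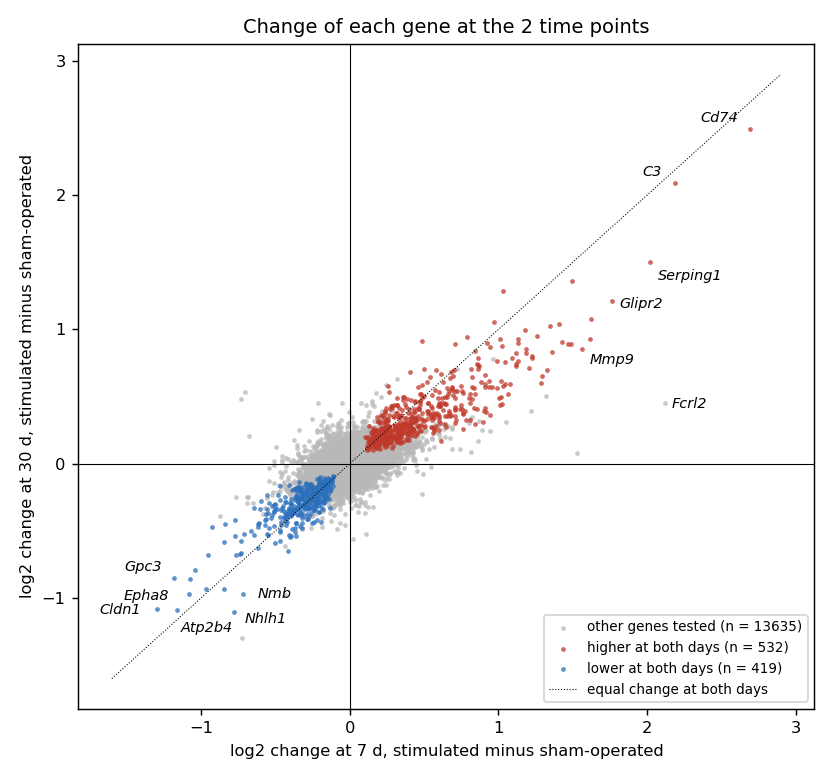
Change of each of 14586 genes (1 probe set each) at 7 d (x axis) and at 30 d (y axis), both as the log2 intensity of stimulated minus sham-operated rats, with 532 genes that were higher at both days in red, 419 that were lower at both days in blue and the other genes in grey. Coloured points fall in the upper right and lower left quadrants by the way they were chosen. Among them Cd74 and C3 lie close to the dotted line of equal change, while Serping1, Glipr2 and Mmp9 lie on the side of a larger change at 7 d.

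The largest increases were in genes of antigen presentation, complement and phagocytes. Cd74, the chaperone of newly made MHC class II molecules, had a log2 intensity of 7.04 at the lowest, 8.75 at the median and 10.57 at the highest in stimulated rats, against 5.62, 6.25 and 6.81 in sham-operated rats. The groups did not overlap, and the pooled change was 2.59 (standard error, SE, 0.344, limma adjusted p = 3.04e-05), a 6.03-fold higher intensity. It measured 2.69 at 7 d and 2.49 at 30 d. Cd74 lies on chromosome 18 of GRCr8 (56527071 to 56536406). RT1-Da and RT1-Ba, the alpha chains of both classical MHC class II molecules of the rat, rose by 1.43 and 1.16 with overlap of the groups, since the lowest stimulated rat had 4.26 for RT1-Da, against 4.52 in the highest sham-operated rat. Of 10 listed MHC class II genes 7 rose (70%, against 5.77% of all genes) and 0 fell. The list had a median change of 0.48, against -0.0032 over all genes. The members that did not pass were RT1-DOa (0.01), Ciita (0.05), the transactivator of the class, and RT1-DOb (0.11). At a single time 2 of the 10 passed at 7 d and 1 at 30 d.

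Complement genes rose almost throughout. C3, the central component that opsonizes targets, ranged from 7.09 to 9.16 in stimulated rats with a median of 8.26, and from 5.66 to 6.58 in sham-operated rats with a median of 6.04. Every stimulated rat lay above every sham-operated rat, and the change of 2.14 (SE 0.202, limma adjusted p = 5.58e-07) was 2.19 at 7 d and 2.09 at 30 d. Serping1, the inhibitor of the C1 complex, had a lowest value of 5.26, a median of 6.88 and a highest value of 7.89 in stimulated rats, against 4.78, 5.0 and 5.18 in sham-operated rats, again with no overlap. Its change of 1.76 (SE 0.204) was 2.02 at 7 d and 1.5 at 30 d. Of 10 measured complement genes of 18 listed, 9 rose, 0 fell and Cd55, which restrains complement on the cell surface, did not pass (-0.25). The list's median change was 0.75. The initiating subunits C1qa (1.01), C1qb (0.75) and C1qc (0.59), the proteases C1r (0.63) and C1s (0.52), the receptor C3ar1 (0.74) and Itgb2 (1.1), the beta chain of complement receptor 3, were among those that rose. In 5 of the 10 genes no stimulated rat overlapped the sham-operated rats, as in 0.521% of all genes.

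Markers of microglia and macrophages moved as a group. All 24 measured members of 25 listed rose, with a median change of 0.79, and 22 of them had a larger change at 7 d (median 0.97) than at 30 d (median 0.56). The mean log2 intensity over the list lay between 6.33 and 7.73 in stimulated rats, with a median of 7.02, and between 6.09 and 6.29 in sham-operated rats, with a median of 6.18. The groups did not overlap, but the lowest stimulated rat was close to the highest sham-operated rat. Genes of resting microglia rose beside those of activated cells. Csf1r, the receptor on whose signal microglia depend, rose by 0.88, Cx3cr1, the fractalkine receptor, by 0.80, and P2ry12, the ADP receptor of surveying microglia, by 0.94. Spi1 (0.66) and Irf8 (0.91), transcription factors that specify the lineage, rose as well. Itgam, the alpha chain of complement receptor 3, rose by 1.19 and Cd68, a lysosomal protein of phagocytes, by 1.35 (limma adjusted p at most 0.00252 for these 7 genes). Tmem119 (0.31) and Olfml3 (0.24), both markers of resident microglia, had the smallest changes of the list. The count of 24 was the same without the 2 arrays of lowest correlation, without the arrays with high Wfs1 and without those with high Ttr, and it was 23 or 24 with any single rat left out.

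Markers of cells that enter from the blood were called about as often as all genes. Of 14 measured members of 20 listed genes of blood cells and border macrophages, Cd4 rose (1.01, limma adjusted p = 0.000454), which is 7.14% of the list against 5.77% of all genes, and 0 fell. Cd4 is carried by helper T cells and, in the rat, also by microglia and macrophages, and its second probe set had a change of -0.01. The T cell genes Cd3e (0.12) and Cd8a (0.06), the monocyte receptor Ccr2 (0.07) and the border macrophage genes Mrc1 (0.09) and Cd163 (0.07) did not pass. Cd3e stood at 5.22 in stimulated 30 d rat 5, against 4.03 in the next stimulated rat and 4.02 in the highest sham-operated rat, whereas Cd3d, of the same receptor complex, ranged from 3.74 to 4.13 in stimulated rats and from 3.89 to 4.09 in sham-operated rats. The mean over this list lay between 4.72 and 4.98 in stimulated rats and between 4.66 and 4.77 in sham-operated rats, so that the groups overlapped. They overlapped at 7 d as well, but at 30 d the stimulated rats had 4.78 to 4.98 and the sham-operated rats 4.68 to 4.75, without overlap. The part of entering cells in the rise of phagocyte genes was not tested.

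Sequence around the start sites was available for some of the genes that carried this shift. Promoters of 250 bases before to 50 bases after the start were taken from RefSeq GRCr8 and matched by gene identifier for 11913 of the 14586 genes tested. Both strands were searched for the letters GAGGAAGT, which are bound by PU.1, the product of Spi1, and for GAAA followed, after a pair of any letters, by a second GAAA, which is bound by IRF factors. Further searches used TTCNNNGAA for STAT factors, TGANTCA for AP-1, TGACGTCA for CREB and GCGGGGGCG for EGR factors, and none of these motifs contains another, though matches can overlap in part. The PU.1 letters stood in 5.8% of 431 promoters of genes higher at both days, in 2.66% of 338 promoters of genes lower at both days and in 2.49% of the promoters of all genes tested. AP-1 letters were found in 7.66% of the promoters of the higher genes, 2.96% of those of the lower genes and 5.41% of all. In the same order of gene groups, the shares were 5.57%, 7.4% and 4.72% for EGR factors, 7.66%, 5.62% and 6.82% for STAT factors, 4.64%, 2.66% and 2.97% for IRF factors and 1.39%, 1.48% and 2.68% for CREB. The PU.1 letters also stood in the promoter of C1ql3, a granule cell gene that fell. No test was run on these shares, and a match is a description of the letters, not a site or a cause. In the list of microglia and macrophages 14 of 24 genes had a promoter, and the PU.1 letters stood in 2 of them (14.3%). Those of Csf1r, Cx3cr1 and Itgam lacked the letters. The 2 were Ctss, a lysosomal cysteine protease of microglia, and Cyth4, an exchange factor of myeloid cells. Their promoters are shown because they hold the PU.1 letters beside a second motif. Capitals mark the PU.1 letters, read here on the opposite strand as ACTTCCTC, with the IRF letters in Ctss and the STAT letters in Cyth4.
Ctss: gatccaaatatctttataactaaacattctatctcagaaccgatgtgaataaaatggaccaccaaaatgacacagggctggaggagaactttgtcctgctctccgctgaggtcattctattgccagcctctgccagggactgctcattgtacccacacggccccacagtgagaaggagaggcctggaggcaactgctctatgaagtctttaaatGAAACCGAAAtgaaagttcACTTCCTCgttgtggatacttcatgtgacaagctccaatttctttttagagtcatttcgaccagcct
Cyth4: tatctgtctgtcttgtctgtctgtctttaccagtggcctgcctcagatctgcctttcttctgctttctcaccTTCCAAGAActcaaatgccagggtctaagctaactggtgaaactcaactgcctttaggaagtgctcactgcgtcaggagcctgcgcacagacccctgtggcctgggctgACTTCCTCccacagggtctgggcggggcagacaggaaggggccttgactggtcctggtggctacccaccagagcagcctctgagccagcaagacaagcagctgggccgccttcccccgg
The Ctss promoter lies at chr2:185775146-185775445 and that of Cyth4 at chr7:112032532-112032831, both on the plus strand. Ctss had a log2 intensity of 9.07 at the lowest, 9.59 at the median and 9.92 at the highest in stimulated rats, against 8.67, 8.79 and 9.11 in sham-operated rats, and Cyth4 had 6.86, 7.46 and 8.23 in stimulated rats, against 6.62, 6.70 and 6.86 in sham-operated rats. Both genes rose, by 0.70 (SE 0.0948) and 0.76 (SE 0.102), and in both the lowest stimulated rat fell at or below the highest sham-operated rat.

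Neighbouring genes moved in opposite directions, which was noticed after the values had been seen. On chromosome 5 of GRCr8 the genes C1qb, C1qc and C1qa follow each other between 154402276 and 154419933, and Epha8, an ephrin receptor of neurons, follows at 154449566 to 154476966. The 3 genes of C1q rose, while Epha8 had the smallest adjusted p of all genes that fell. It ranged from 6.42 to 6.84 in stimulated rats with a median of 6.56, and from 7.26 to 8.0 in sham-operated rats with a median of 7.56. The groups were well apart, and the change of -1.03 (SE 0.0744, limma adjusted p = 1.85e-08) was -1.08 at 7 d and -0.97 at 30 d. The genes on either side, Ephb2 (-0.07) and Zbtb40 (-0.11), did not pass. The promoters of C1qa and Epha8, both read from the minus strand, are shown to set the neighbours side by side, and capitals mark the STAT letters in C1qa and the EGR letters in Epha8.
C1qa: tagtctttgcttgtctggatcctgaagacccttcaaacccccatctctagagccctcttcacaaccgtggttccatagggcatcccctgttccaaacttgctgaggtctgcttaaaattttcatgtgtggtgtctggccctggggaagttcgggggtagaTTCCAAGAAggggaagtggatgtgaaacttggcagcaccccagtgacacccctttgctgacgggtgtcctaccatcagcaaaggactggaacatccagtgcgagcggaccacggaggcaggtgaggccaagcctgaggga
Epha8: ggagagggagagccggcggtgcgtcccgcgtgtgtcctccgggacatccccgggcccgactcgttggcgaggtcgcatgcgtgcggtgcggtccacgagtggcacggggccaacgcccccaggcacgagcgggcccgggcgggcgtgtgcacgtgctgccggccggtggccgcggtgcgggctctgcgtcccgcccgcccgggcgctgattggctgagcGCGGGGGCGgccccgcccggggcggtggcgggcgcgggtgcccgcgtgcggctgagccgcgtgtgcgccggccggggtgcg
They lie at chr5:154419884-154420183 and chr5:154476917-154477216. C1qa had 6.87, 7.55 and 9.0 as the lowest, median and highest log2 intensity in stimulated rats, against 6.12, 6.71 and 6.79 in sham-operated rats, with no overlap.

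Lysosomal and phagocytic genes rose in 12 of 20 measured cases of 26 listed, with a median change of 0.30. Gpnmb, a glycoprotein of lipid-laden phagocytes, had the largest change of the list. Its lowest, median and highest values were 5.92, 6.99 and 8.30 in stimulated rats, against 5.64, 5.77 and 5.90 in sham-operated rats. The groups were apart by a narrow margin, and the change was 1.22 (SE 0.225, limma adjusted p = 0.000832). Npc2, which exports cholesterol from the lysosome, rose by 0.95, Ctsc, a protease that activates others, by 0.73, and Grn, the progranulin precursor, by 0.62. Lpl, lipoprotein lipase, was the only member that fell (-0.50), and Apoe (0.11) and Itgax (0.06) did not pass.

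Reactive astrocyte genes rose in 11 of 23 measured cases of 25 listed, and 0 fell. Gfap, the intermediate filament of astrocytes, had 9.88, 10.59 and 11 as its lowest, median and highest log2 intensity in stimulated rats, against 9.24, 9.51 and 9.79 in sham-operated rats. No rat overlapped with the other group, and the change of 1.03 (SE 0.105, limma adjusted p = 1.25e-06) was 1.13 at 7 d and 0.93 at 30 d. Vim, a second filament protein, rose by 0.80, Timp1, an inhibitor of metalloproteinases, by 0.87, Hspb1, a small heat shock protein, by 0.75, and Cd44, a receptor for hyaluronan, by 0.63. Several genes linked to acute astrocyte reactions did not pass, among them Lcn2 (0.10), Steap4 (0.04), Ptx3 (0.01) and Emp1 (0.08). Astrocyte transport and metabolism gave a narrower picture. Mlc1, a membrane protein of astrocyte endfeet, rose by 0.38 and Aqp4, the water channel there, by 0.33, while the other 13 of 15 measured members of 18 listed did not pass. The list's median change was 0.02, against 0.19 for reactive astrocytes.

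Cytokines, chemokines and their receptors were split, with 16 of 33 measured members of 38 listed higher and 4 lower. Of these, 9 of the higher and 3 of the lower met the condition at both days. At a single time 14 rose and 2 fell at 7 d, and 1 rose and 0 fell at 30 d. Tgfb1, a cytokine that restrains inflammation, rose by 0.75 and Tgfb2, its relative made by neurons and astrocytes, fell by 0.32 on the log2 scale. The receptor chains Il13ra1 (0.55), Il10rb (0.51) and Tnfrsf1a (0.47) and the pattern receptor Tlr7 (0.82) rose. Cxcl12 (-0.37), Il6r (-0.28) and Il1rap (-0.23) fell. The first-line cytokines Il1b (0.00) and Tnf (-0.09) did not pass, and Stat3, a transcription factor downstream of several of these receptors, rose by 0.27 with no overlap of the groups. Genes of the interferon response and MHC class I rose in 7 of 22 measured cases of 25 listed, with a median of 0.21. They included Mx1 (0.68), B2m (0.38), the shared light chain of class I molecules, Gbp2 (0.41) and the immunoproteasome subunit Psmb9 (0.44). The list's median was 0.29 at 7 d and 0.09 at 30 d.

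Of 37 measured genes of the extracellular matrix and its enzymes (39 listed), 9 rose and 1 fell. Lox, the enzyme that cross-links collagen and elastin, ranged from 5.58 to 6.71 in stimulated rats with a median of 6.01, and from 4.69 to 5.11 in sham-operated rats with a median of 4.95. There was no overlap, and the change was 1.09 (SE 0.101, limma adjusted p = 4.89e-07). Mmp9, a gelatinase that digests the matrix around synapses, rose by 1.21 (SE 0.171), with 1.56 at 7 d and 0.85 at 30 d. Bgn (0.63), Sparc (0.43) and the perineuronal net proteoglycans Ncan (0.39) and Acan (0.26) rose too. Gpc3, a heparan sulphate proteoglycan, was the exception. It had 5.37, 6.29 and 6.93 as the lowest, median and highest value in stimulated rats, against 7.05, 7.23 and 7.51 in sham-operated rats, and fell by 1.02 on the log2 scale (SE 0.149) without overlap.

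**Figure D2:**
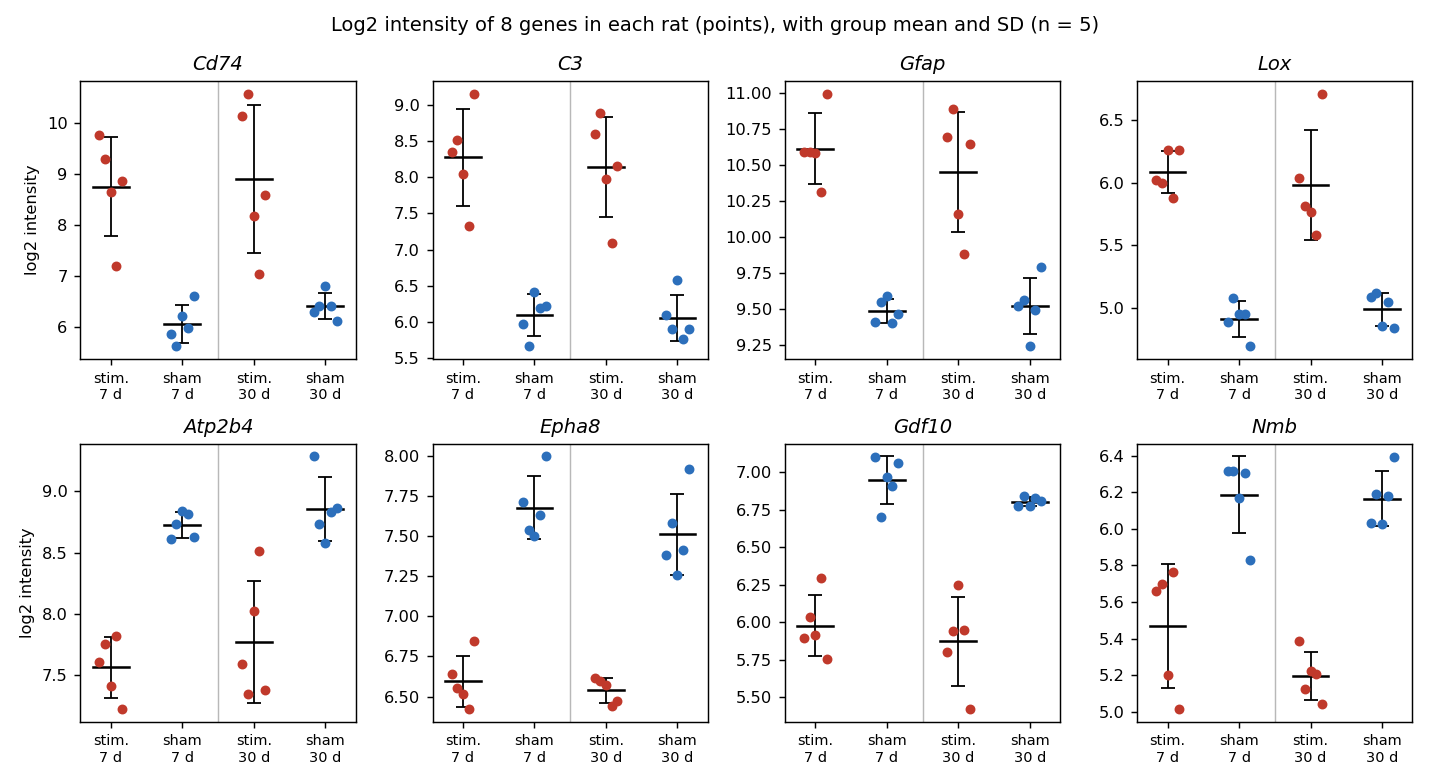
Log2 intensity (y axes) of Cd74, C3, Gfap, Lox, Atp2b4, Epha8, Gdf10 and Nmb in each rat (points; stimulated red, sham-operated blue), with the mean and SD of each group of 5. For all 8 genes the 10 stimulated rats lie entirely above or entirely below the 10 sham-operated rats, with medians of 8.75 against 6.25 for Cd74 and 6.56 against 7.56 for Epha8.

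The smallest adjusted p among the genes that rose was not found in the inflammatory groups. The genes of this paragraph and the next were taken after their values had been seen, for the smallest p. Serinc2, a membrane protein of the serine incorporator family, had 8.81 at the lowest, 9.03 at the median and 9.18 at the highest in stimulated rats, against 7.70, 8.01 and 8.22 in sham-operated rats. The groups were far apart beside their spread, and the change of 0.97 (SE 0.0619, limma adjusted p = 2.93e-09) was 1.01 at 7 d and 0.93 at 30 d. Necab3, an EF-hand calcium binding protein, had 7.18, 7.41 and 7.84 in stimulated rats, against 6.32, 6.59 and 6.84 in sham-operated rats, and rose by 0.91 (SE 0.0845). It was the only one of 23 measured calcium pumps, buffers and kinases that rose. Phka2, a regulatory subunit of phosphorylase kinase in glycogen breakdown, rose by 0.66, Prss35, a serine protease-like protein, by 0.54, Frmd6, an upstream regulator of Hippo signalling, by 0.51, Tmod1, which caps actin filaments, by 0.41, and Me3, a mitochondrial malic enzyme, by 0.39, each without overlap of the groups.

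Efr3a, which anchors a phosphatidylinositol kinase at the plasma membrane, rose by 0.54 (SE 0.0491) with some overlap. Npy2r, the presynaptic receptor through which neuropeptide Y restrains transmitter release, had 7.34 at the lowest, 7.85 at the median and 8.06 at the highest in stimulated rats, against 6.58, 6.96 and 7.38 in sham-operated rats. The lowest stimulated rat lay just below the highest sham-operated rat, and the change was 0.84 (SE 0.0844, limma adjusted p = 1.19e-06), which was the same at 7 d (0.84) and at 30 d (0.84). Npy itself, the peptide that this receptor binds, had a change of 0.43 and did not pass (limma adjusted p = 0.153). At 7 d it ranged from 8.26 to 9.15 in stimulated rats and from 7.80 to 8.13 in sham-operated rats. At 30 d the highest value was 9.73 in stimulated rat 5, which also had high Ttr and Wfs1, the other 4 stimulated rats had 7.73 to 8.12 and the sham-operated rats 7.91 to 8.26. Without stimulated 30 d rat 5 the pooled change was 0.28.

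Fewer decreases than increases were large, and the largest ones came from several gene groups. Cldn1, a claudin of tight junctions, had the largest decrease. Its lowest, median and highest values were 4.69, 5.59 and 5.92 in stimulated rats, against 6.10, 6.60 and 7.17 in sham-operated rats. There was no overlap, and the change was -1.19 (SE 0.152, limma adjusted p = 2.12e-05), a 2.28-fold lower intensity. Atp2b4, a plasma membrane pump that removes calcium from the cell, had 7.22, 7.60 and 8.51 in stimulated rats, against 8.57, 8.78 and 9.29 in sham-operated rats, and fell by 1.13 on the log2 scale (SE 0.121), with a change of -1.16 at 7 d and -1.09 at 30 d. Of the other plasma membrane pumps, Atp2b3 fell to a small extent (-0.13), and Atp2b2 (0.01) and Atp2b1 (0.05) did not pass. In the list of calcium pumps, buffers and kinases 8 of 23 measured members of 24 listed fell (5 without the arrays with high Ttr), including the inositol trisphosphate receptor Itpr1 (-0.37), Camk4, a kinase of neuronal nuclei (-0.32), and Necab2 (-0.38), a relative of the rising Necab3. The second probe set of Itpr1 had a change of -0.02. Ryr1, the calcium release channel known best from muscle, was outside the list and was taken after its value was seen. It ranged from 5.95 to 6.32 in stimulated rats and from 6.61 to 7.05 in sham-operated rats, and fell by 0.62 on the log2 scale (SE 0.0518, limma adjusted p = 1.34e-07).

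Growth factors and their receptors went both ways, with 4 of 32 measured members of 36 listed higher and 5 lower and a median of -0.03. Gdf10, a ligand of the transforming growth factor beta family, had 5.42 at the lowest, 5.93 at the median and 6.30 at the highest in stimulated rats, against 6.70, 6.83 and 7.10 in sham-operated rats. The groups did not overlap, and the change of -0.95 (SE 0.0787, limma adjusted p = 1.34e-07) was -0.97 at 7 d and -0.93 at 30 d. Igfbp5, which binds insulin-like growth factors, fell by 0.70 on the log2 scale without overlap, whereas Igf1 rose by 0.75, with 1.01 at 7 d and 0.50 at 30 d. The Notch ligand Dll1 (-0.26) and Vegfa (-0.23) fell as well. Ddit4l, a restraint on mTOR signalling, ranged from 5.13 to 6.01 in stimulated rats and from 6.17 to 6.95 in sham-operated rats, and fell by 0.97 on the log2 scale (SE 0.0987). Its relative Ddit4 rose by 0.20, a call lost without any 1 of 13 of the 20 rats, and the list of p53 targets and restraints on mTOR, with 3 of 14 measured members of 18 listed higher and 2 lower (1 or 2 lower with any single rat left out), did not move together.

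Of 19 measured neuropeptide precursors of 23 listed, 1 fell (5.26%, against 4.59% of all genes) and 0 rose. Without the arrays with high Ttr 2 fell and 1 rose. The gene that fell with all rats was Nmb, the precursor of neuromedin B. It had 5.01, 5.21 and 5.77 as the lowest, median and highest value in stimulated rats, against 5.83, 6.19 and 6.39 in sham-operated rats. The ranges nearly met, and the change of -0.84 (SE 0.0914, limma adjusted p = 2.81e-06) was -0.72 at 7 d and -0.97 at 30 d. Trh, the precursor of thyrotropin-releasing hormone, had a change of 0.87 and did not pass (limma adjusted p = 0.079). It stood at 7.57 in stimulated 7 d rat 5 and at 7.66 in stimulated 30 d rat 5, both with high Ttr. The other stimulated rats had 4.86 to 5.46 and the sham-operated rats 4.63 to 4.96. Stimulated 7 d rat 2, which also had high Ttr, had 4.89. Without stimulated 30 d rat 5 the pooled change was 0.62. Trhr, the receptor of that hormone, fell by 0.92 on the log2 scale (SE 0.119, limma adjusted p = 2.43e-05), with values between 4.0 and 5.12 in stimulated rats and between 4.94 and 5.96 in sham-operated rats.

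Of 23 measured glutamate receptor genes (24 listed) 7 fell and 0 rose, and the median change was -0.07. The 7 were kainate receptor subunits and their partners, presynaptic metabotropic receptors and 1 NMDA receptor subunit. Grik3, a kainate receptor subunit, ranged from 6.05 to 7.05 in stimulated rats with a median of 6.38, and from 6.97 to 7.36 in sham-operated rats with a median of 7.16. The ranges overlapped slightly, and the change was -0.72 (SE 0.0874, limma adjusted p = 1.06e-05). Grik1 (-0.26), the auxiliary subunits Neto2 (-0.53) and Neto1 (-0.17), Grm4 (-0.24), Grm8 (-0.22) and the NMDA receptor subunit Grin3a (-0.17) fell, while the AMPA receptor subunits Gria1 (-0.08), Gria2 (-0.09), Gria3 (0.07) and Gria4 (-0.05) and the main NMDA receptor subunits Grin1 (-0.04), Grin2a (0.01) and Grin2b (-0.07) did not pass. GABA receptor genes gave 2 decreases and 1 increase among 13 measured members of 16 listed. Gabrd, the delta subunit of extrasynaptic receptors on granule cells, fell by 0.51 on the log2 scale, Gabrg3 by 0.46, and Gabrb2 rose by 0.17, a call that was lost without any 1 of 16 of the 20 rats (adjusted p in limma up to 0.0868).

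Among 39 measured potassium channel genes of 45 listed, 7 fell and 3 rose, with a median of -0.08. The increases numbered 1 without the arrays with high Ttr and between 1 and 4 with any single rat left out, being 1 for 8 of the 20 rats. Kcnt2, a sodium-activated channel, fell by 0.58 on the log2 scale, Kcnh5, of the ether-a-go-go family, by 0.48, and Kcna2, a channel of axons, by 0.23. Kcnk1, a leak channel, rose by 0.29. Sodium, calcium and HCN channels had 5 decreases and 0 increases among 27 measured members of 30 listed, led by the T-type channel Cacna1i (-0.38) and Cacng2, an auxiliary subunit of AMPA receptors (-0.32). The decreases numbered 3 without the arrays with high Ttr and 9 without sham-operated 30 d rat 3. Genes of synaptic vesicles and release had 5 decreases and 1 increase among 27 measured members of 29 listed, and 2 decreases without those arrays. Syt10, a calcium sensor of exocytosis, fell by 0.45 on the log2 scale with no overlap between the groups. The core vesicle genes Snap25 (-0.05), Syp (-0.01) and Vamp2 (0.01) did not pass.

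In axon guidance, the list with the most measured members, 11 of 40 measured members of 42 listed fell (27.5%) and 3 rose. After Epha8 the clearest was Ntng1, netrin G1, with values of 7.11 at the lowest, 7.25 at the median and 7.46 at the highest in stimulated rats, against 7.61, 7.76 and 7.90 in sham-operated rats. The groups did not overlap, and the change was -0.51 (SE 0.052, limma adjusted p = 1.25e-06). The ephrin Efnb2 (-0.47), the repellent Slit2 (-0.36), its receptor Robo1 (-0.27), Sema3e (-0.30) and the netrin receptor Dcc (-0.27) fell. The ephrin Efna5 rose by 0.73, with 1.02 at 7 d and 0.44 at 30 d. The median of the list, -0.05, was close to that of all genes.

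Granule cell genes were slightly lower as a list, though 11 members did not pass. Of 16 measured markers of mature granule cells 5 fell (31.2%, against 4.59% of all genes) and 0 rose, with a median of -0.10. Averaged over the list, 7 d values spanned 7.79 to 7.93 after stimulation and 7.94 to 8.09 after sham surgery. The 30 d averages spanned 7.72 to 8.008 and 8.012 to 8.08, in the same order. The groups were thus narrowly apart at each time, but overlapped with both times together. C1ql3, a synaptic organizer released by mossy fibres, had 9.16, 9.29 and 9.37 as the lowest, median and highest value in stimulated rats, against 9.56, 9.61 and 9.83 in sham-operated rats. The groups did not overlap, and the change was -0.36 (SE 0.0394, limma adjusted p = 2.95e-06). Calb1, calbindin, fell by 0.36 on the log2 scale and Plk5, a neuronal member of the polo-like family, by 0.82. Plk5 stood at 5.67 in stimulated 7 d rat 5 and at 5.43 in stimulated 30 d rat 5, both with high Ttr. The other stimulated rats had 6.57 to 7.24 and the sham-operated rats 7.27 to 7.61. Stimulated 7 d rat 2, which also had high Ttr, had 6.76. Without stimulated 30 d rat 5 the change of Plk5 was -0.68. Prox1, the transcription factor that marks the cell type (-0.12), and C1ql2 (-0.15) did not pass. Without the 2 arrays of lowest correlation 3 members fell and 2 rose, and with any single rat left out 3 to 5 fell and 0 to 2 rose. Myo5b, a motor of recycling endosomes, fell by 0.89 on the log2 scale (SE 0.0741), with values between 6.47 and 7.21 in stimulated rats and between 7.56 and 7.98 in sham-operated rats. Ndst3, an enzyme of heparan sulphate synthesis, fell by 0.72 and Pkib, an inhibitor of protein kinase A, by 0.71, although the second probe set of Pkib had a change of -0.13.

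Genes of newborn granule neurons went both ways, with 4 of 18 measured members of 20 listed higher and 2 lower. Sox11, a transcription factor of immature neurons, had 7.13 at the lowest, 7.43 at the median and 8.07 at the highest in stimulated rats, against 6.20, 6.43 and 7.19 in sham-operated rats. There was a small overlap, and the change was 1.01 (SE 0.114, limma adjusted p = 5.52e-06). Its relative Sox4 rose by 0.45, Draxin, a guidance protein, by 0.32, and Dcx, doublecortin of migrating neurons, by 0.24. Nhlh1, a basic helix-loop-helix factor of young neurons, ranged from 5.19 to 6.56 in stimulated rats with a median of 6.16, and from 6.78 to 7.34 in sham-operated rats with a median of 6.98, and fell by 0.94 on the log2 scale (SE 0.122), with -0.78 at 7 d and -1.11 at 30 d. Neurod1 fell by 0.31, but not past the threshold without the arrays with high Ttr (adjusted p = 0.076 in limma). Cell cycle genes rose in 4 of 20 measured cases of 24 listed, and in 3 to 6 with any single rat left out. Tyms (0.31) and Mki67 (0.20) met the condition at both days, whereas Cdk6 (0.23) and Mcm2 (0.15) did not. The call of Mcm2 was lost without any 1 of 11 of the 20 rats.

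Markers of GABA interneurons gave 5 decreases and 0 increases among 24 measured members of 27 listed. Erbb4, the neuregulin receptor of interneurons, fell by 0.32 on the log2 scale, Kcnc2, a fast potassium channel, by 0.26, Satb1 by 0.25 and Gad1, the enzyme that makes GABA, by 0.18, whereas Pvalb (-0.20), Sst (0.06) and Gad2 (-0.10) did not pass. These changes were at least as large at 30 d as at 7 d for Erbb4 (-0.22 at 7 d and -0.42 at 30 d), Kcnc2 (-0.20 and -0.32) and Gad1 (-0.13 and -0.24), but not for Satb1 (-0.26 and -0.24), and the differences between the times were not past the threshold. None of 12 measured markers of hilar mossy cells and CA fields passed with all rats (15 listed). With all rats the calcium-dependent membrane protein Cpne7 had -0.27 (limma adjusted p = 0.0866) and Bok, of the Bcl-2 family, -0.14 (limma adjusted p = 0.358). Sham-operated 30 d rat 3 had the lowest sham-operated value of both and was left out because it decided the count. Without it Cpne7 (-0.34) and Bok (-0.21) passed the threshold, but that these decreases were larger was set by this choice. Wfs1 ranged from 7.03 to 9.25 in stimulated rats and from 7.01 to 8.81 in sham-operated rats.

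Genes induced by neuronal activity were split, with 6 of 27 measured members of 29 listed higher and 3 lower. Nr4a3, an orphan nuclear receptor, had 7.17, 7.47 and 7.88 as the lowest, median and highest value in stimulated rats, against 7.97, 8.01 and 8.16 in sham-operated rats. No values overlapped between the groups, and it fell by 0.54 on the log2 scale (SE 0.0627, limma adjusted p = 6.71e-06). Arc, which acts at synapses, fell by 0.41 and Nr4a1 by 0.25. Nptx2, a pentraxin of excitatory synapses, rose by 0.60, Ptgs2, the inducible cyclooxygenase, by 0.64, and Bdnf by 0.27. The immediate early genes Fos (0.16), Fosb (0.17), Junb (0.20), Egr1 (-0.15) and Npas4 (0.12) did not pass. One rat stood apart in these genes, which was seen after the values. Stimulated 30 d rat 2 had the highest value of the 10 stimulated rats in 13 of the 27. Its Npas4 was 6.93, against 5.67 in the next stimulated rat and 5.52 in the highest sham-operated rat, its Fos was 5.89, against 5.03 and 4.86, and its Egr1 was 9.60, against 8.5 and 8.75. This rat was left out for its high values, so that lower changes of Egr1, Egr3 and Arc without it were set by the choice. Egr1 then had -0.28, against -0.15 with all rats (limma adjusted p = 0.579). Egr3, of the same family, had -0.16, against -0.11 with all rats (limma adjusted p = 0.22), and Arc had -0.51, against -0.41. Without this rat 6 genes of the list rose and 5 fell. Without the arrays with high Ttr 3 genes of this list rose and 2 fell.

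**Figure D3:**
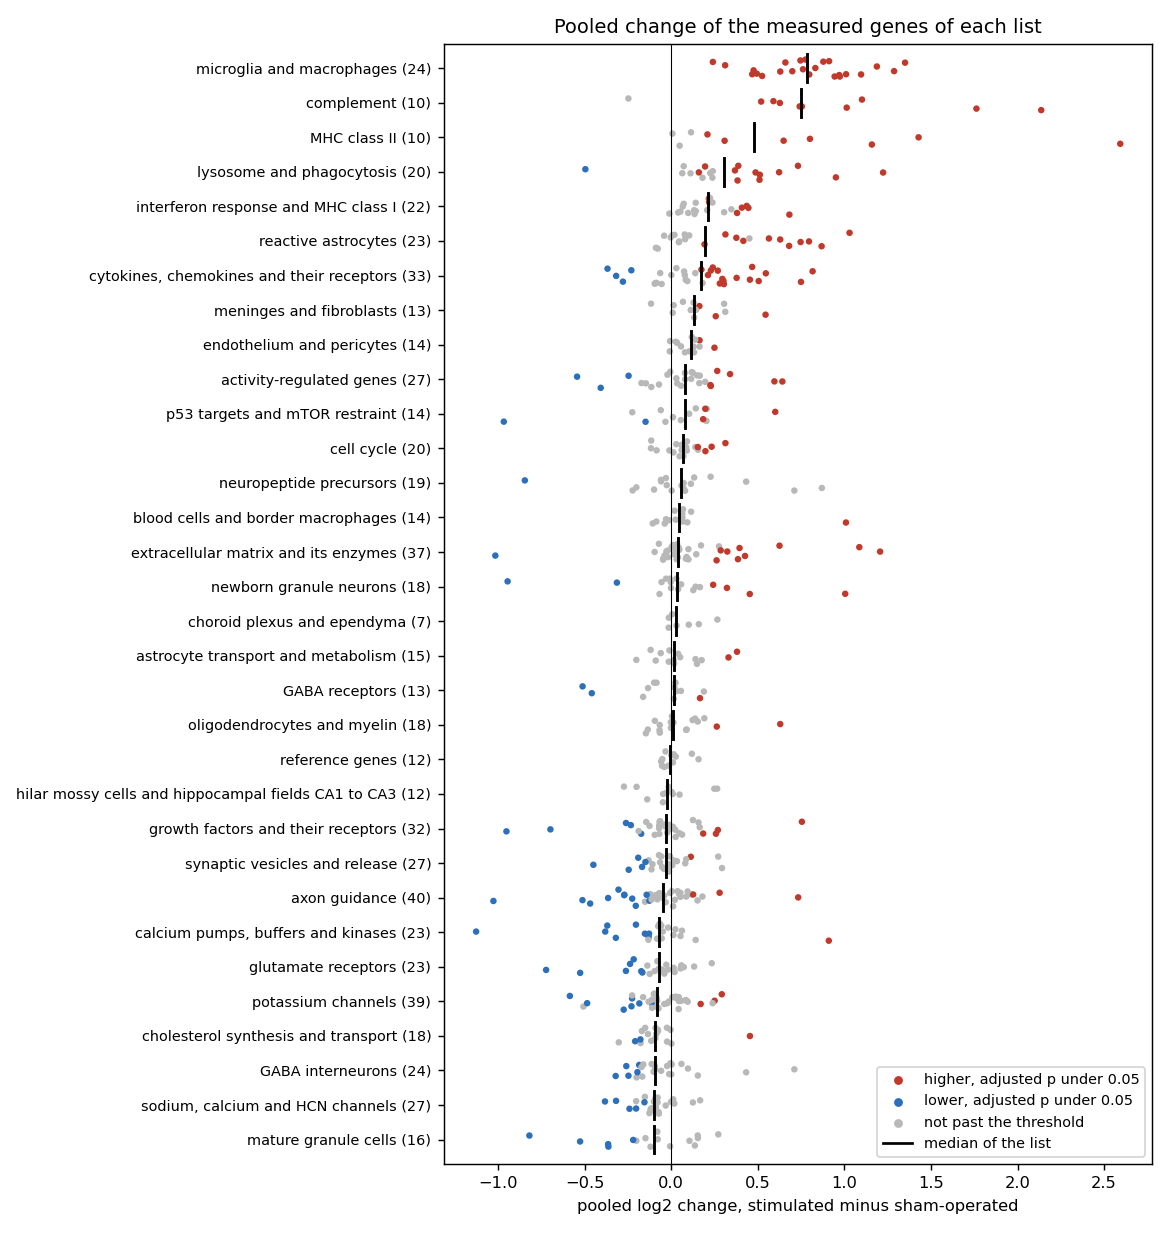
Pooled log2 change, stimulated minus sham-operated (x axis), of each measured gene of the 32 lists (points, with the number measured in parentheses), ordered by the median of the list (black bar). All 24 points of microglia and macrophages are red, 11 of the 40 of axon guidance are blue, and most points of the other neuronal lists are grey. Points are shifted vertically at random so that they can be seen.

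Supporting cells of other kinds were called in small numbers. Oligodendrocyte genes had 2 increases among 18 measured members of 20 listed. Enpp6, a marker of newly forming oligodendrocytes, rose by 0.63 and Cldn11 by 0.26, while Cnp (0.12), Mag (0.14) and Cspg4 (0.15) did not pass. Endothelial and pericyte genes had 2 increases among 14 measured (18 listed), and genes of meninges and fibroblasts 3 among 13 measured (15 listed), including Dcn (0.55). These are 14.3% and 23.1% of the lists, against 5.77% of all genes. The counts rested on single rats, running from 0 to 3 for endothelium and pericytes and from 1 to 5 for meninges and fibroblasts with each rat left out in turn, and they were 0 and 1 without the arrays with high Ttr. The mean over the meningeal list lay between 5.70 and 6.08 in stimulated rats and between 5.57 and 5.94 in sham-operated rats. None of 7 measured choroid plexus and ependymal genes of 13 listed passed, and Ttr ranged from 4.38 to 6.64 in stimulated rats and from 4.31 to 5.49 in sham-operated rats. Cholesterol genes had 1 increase, Abca1 (0.46), and 2 decreases, Srebf2 (-0.21) and Stard4 (-0.18), or 4 decreases without stimulated 30 d rat 5, among 18 measured members of 24 listed. None of 12 measured reference genes of 13 listed passed with all rats (0 or 1 with any single rat left out), with changes between those of Pgk1 (-0.06) and Gusb (0.16) and 0.03 for Actb.

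The rats of the stimulated groups differed in how far they had moved. Over the 15 largest increases, stimulated 30 d rat 4 had the lowest value of the 10 stimulated rats in 12 genes, and its median distance from the mean of the sham-operated rats was 0.29. Stimulated 7 d rat 5 had the highest value in 11 of the 15, with a median distance of 2.32, and stimulated 30 d rat 2 in 3, with 2.14. Over the 15 largest decreases, stimulated 30 d rat 4 again lay closest to the sham-operated rats, with the highest value in 7 genes and a median distance of -0.47, while stimulated 7 d rat 5 and stimulated 30 d rat 5 had distances of -1.20 and -1.14. These 15 and 15 genes had been chosen for their changes. Without stimulated 30 d rat 4, 994 probe sets rose in the pooled comparison, and without stimulated 30 d rat 2, 769 rose and 585 fell. Leaving out any single rat moved the change of Cd74 to between 2.40 and 2.82 and that of Epha8 to between -1.06 and -0.98.

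**Figure D4:**
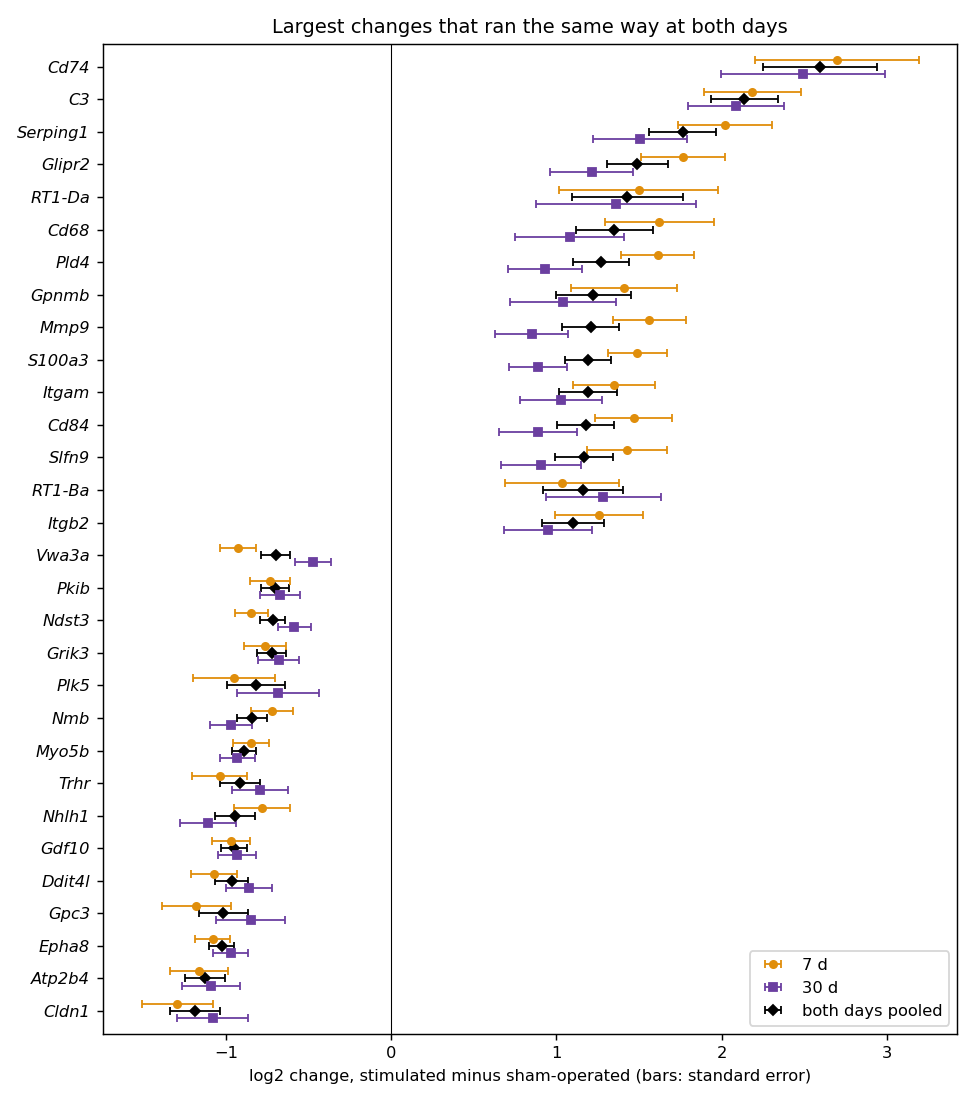
Log2 change, stimulated minus sham-operated (x axis), of the 15 largest increases and 15 largest decreases that ran the same way at both days, pooled (diamonds), at 7 d (circles) and at 30 d (squares), with bars for the standard error. Pooled changes run from 2.59 for Cd74 to 1.1 for Itgb2 among the increases and from -0.70 for Vwa3a to -1.19 for Cldn1 among the decreases, and Pld4, Mmp9, S100a3 and Vwa3a are examples with a larger change at 7 d.

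Glipr2, a Golgi-associated protein (1.49), Pld4, a nuclease of endolysosomes (1.27), S100a3, a calcium binding protein (1.19), Cd84, an adhesion receptor of leukocytes (1.18), and Slfn9, a Schlafen protein (1.16), completed the 15 largest increases. In all 15 the change at 7 d had the sign of that at 30 d, as the choice required, and it was larger at 7 d in each but RT1-Ba, with 1.03 at 7 d and 1.28 at 30 d. Over the 561 probe sets that were higher at both days the change was larger at 7 d in 423, with medians of 0.36 at 7 d and 0.29 at 30 d. Over the 443 that were lower it was larger at 7 d in 285, with medians of -0.27 at 7 d and -0.25 at 30 d.

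Some genes were visible only when both times were pooled. Of the 1605 probe sets past the threshold, 653 (4.13% of those tested) passed at neither time alone, of which 311 rose (1.97%) and 342 fell (2.16%), while 137 that passed at a single time did not pass when pooled. The ones with the smallest p included Kcnh4, a channel of the ether-a-go-go family, with values between 5.60 and 5.98 in stimulated rats and between 5.92 and 6.16 in sham-operated rats. Its change was -0.25 (SE 0.0494, limma adjusted p = 0.00145), with adjusted p = 0.0513 at 7 d and adjusted p = 0.0553 at 30 d in limma. Amotl1, an angiomotin of cell junctions (-0.31), Tpd52 (-0.25), Vstm2b (-0.23) and Hmbox1, a homeobox factor (-0.19), fell in the same way. Pla2g4a, the phospholipase that releases arachidonic acid, had 5.17, 5.49 and 5.78 as the lowest, median and highest value in stimulated rats, against 4.87, 5.08 and 5.29 in sham-operated rats, and rose by 0.35 (SE 0.0713). Palmd (0.30), Efemp1, a matrix protein (0.32), and Man1c1, a mannosidase of the Golgi (0.26), rose. The median pooled change was 0.21 among the 311 and -0.19 among the 342.

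The difference between the changes at 7 d and at 30 d was tested for each probe set and passed the threshold in 0 of 15800 in limma (682 had an unadjusted p under 0.05, 4.32% of those tested). The smallest p were found in Cdh4, Cdk6, Cyb561, Fcrl2 and Anxa7. Fcrl2, an Fc receptor-like protein listed with microglia, had a change of 2.12 at 7 d and 0.46 at 30 d, and ranged from 4.53 to 8.40 in stimulated rats and from 4.80 to 5.16 in sham-operated rats. Cdk6, a kinase of the cell cycle, had 0.44 at 7 d and 0.03 at 30 d, and Cyb561, a membrane reductase, had 0.61 and 0.17. Gadd45a, a stress-induced gene, had 0.89 at 7 d and 0.31 at 30 d. Among decreases, Gpr37, a receptor of oligodendrocytes, had -0.30 at 7 d and -0.01 at 30 d, and Ccdc159 had -0.43 and -0.02, and the pooled call of either was lost without any 1 of 13 rats for Gpr37 and of 14 for Ccdc159. A p that misses the threshold does not show that the 2 times were alike. The standard error of the Fcrl2 change was 0.259 at each time.

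Several genes were measured by more than 1 probe set, which gave a check within the arrays. Of 60 genes past the threshold with several tested probe sets, 51 had the same sign in all of them and 22 passed in all. Ralgapa2, a subunit of the complex that inactivates Ral GTPases, was singled out after its values were seen. Its 10 probe sets all had negative changes, between -0.69 and -0.17.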

How the data were processed

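Total RNA of the left dentate gyrus of 20 rats was hybridised to Affymetrix Rat Gene 1.1 ST arrays, 1 array per rat. Per the labels and the study's methods, the authors normalized the intensities by RMA in oligo (version 1.22.0), and the deposited table holds log2 values of 29214 probe sets. Values below the 20th percentile of the table (3.69, in place of the antigenomic probes of the study's methods) were set to it. A probe set was dropped when over 5 of its arrays did not exceed this level, as were 962 that name several genes and 9608 that name none in the platform annotation. This left 15800 probe sets, with symbols updated through RefSeq GRCr8 (99% of single-gene probe sets matched). A gene with several probe sets is given at the one with the highest mean. No dates or slides of the arrays were used.

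Linear models were fitted in limma (version 3.58.1, R 4.3.3), with treatment and day (7 d or 30 d) for the pooled comparison and with the 4 groups for each day and for the difference between days. P-values were two-sided and adjusted by the Benjamini-Hochberg method over all 15800 probe sets. Of the tested probe sets, 62 share identical values with another.

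The members, the 32 gene lists and the tests were chosen with earlier results of these data known. Genes were named by rule as the 15 largest increases and decreases among probe sets that ran the same way at both days, up to 5 members per list with the smallest p, the 10 smallest p among those called when pooled only, the 6 smallest p for a difference between days among pooled calls and the 5 smallest among all. Other genes were named for their family or after their values were seen. Alternatives changed the filter, floor, normalization, variance model, array weights, design, block, probe set rule and rats. No test of gene sets was run.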

Additional observations from a re-analysis of the deposited data

Results flagged for a closer look

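A value stood apart from the other 9 rats of its treatment in 48 of 432 looks at the genes named here (11.1%), as the share of the range of its 10 rats taken by the gap to the nearest one was past Dixon's critical value. Chance would do so in about 1 of 20 looks, and over all 15800 probe sets tested it happened in 2880 of 31600 looks (9.11%). All values are log2 intensities.

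Stimulated 7 d rat 5 was the rat concerned in 16 cases. It was the highest of the stimulated rats in C1qa (9.0, with the nearest rat at 7.80), C1qc (8.0, nearest 6.82), Irf8 (7.49, nearest 6.36), Spi1 (6.36, nearest 5.64), Hspb1 (7.06, nearest 5.98), Cd44 (5.82, nearest 5.34) and Epha8 (6.84, nearest 6.64). It was the lowest in Lpl (6.06, nearest 6.72), Palmd (7.48, nearest 7.87), Slit2 (6.72, nearest 7.05), Robo1 (7.51, nearest 7.75), Grik1 (5.17, nearest 5.41), Neto1 (9.60, nearest 9.79), Itpr1 (7.83, nearest 8.07), Bok (6.30, nearest 6.58) and Kcna2 (8.32, nearest 8.56).

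Stimulated 30 d rat 2 was the highest of the stimulated rats in 7 genes induced by neuronal activity, which were Egr1 (9.60, nearest 8.5), Egr3 (8.24, nearest 7.85), Npas4 (6.93, nearest 5.67), Junb (7.79, nearest 6.60), Fosb (5.76, nearest 4.75), Fos (5.89, nearest 5.03) and Arc (7.26, nearest 6.59). Stimulated 30 d rat 5 was the highest in Cd3e (5.22, nearest 4.03) and the lowest in Nhlh1 (5.19, nearest 5.84), Amotl1 (6.39, nearest 6.77) and Ralgapa2 (7.58, nearest 7.75).

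Among sham-operated rats, 30 d rat 3 was concerned in 11 cases. It was the highest in Sox11 (7.19, nearest 6.59), Il10rb (6.37, nearest 5.99), Gbp2 (5.09, nearest 4.84) and Prox1 (9.82, nearest 9.67), and the lowest in Pvalb (5.56, nearest 6.23), Bok (6.24, nearest 6.74), Grin1 (9.08, nearest 9.30), Cyb561 (6.42, nearest 6.61), Atp2b2 (9.57, nearest 9.75), Srebf2 (8.89, nearest 9.06) and Grn (7.79, nearest 7.93). Sham-operated 7 d rat 3 was the highest in Gadd45a (4.75, nearest 4.42), Itpr1 (8.93, nearest 8.61), Amotl1 (7.44, nearest 7.23) and Zbtb40 (6.64, nearest 6.47), and the lowest in Gabrg3 (6.93, nearest 7.41). The rest were the highest values of Atp2b4 (9.29, nearest 8.86) and Grin3a (5.18, nearest 4.94) in sham-operated 30 d rat 1, the highest of Wfs1 (8.81, nearest 7.79) in sham-operated 30 d rat 2, the lowest of Itgam (4.47, nearest 4.79) in sham-operated 30 d rat 4 and the lowest of C1r (6.12, nearest 6.41) in sham-operated 7 d rat 2.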

How the results depend on the processing

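The count of probe sets that moved the same way at both days stayed within 1.5 times of 561 higher and 443 lower under every alternative run for it, and none of the 148 named genes past the pooled threshold changed direction under any. In the fits of a single time the direction was set beforehand, since 0 pooled calls had opposite signs at the 2 times. The pooled calls numbered 785 higher and 667 lower without the filter on low values, 830 and 776 with arrays centred on their median, 1018 and 890 with array weights and 736 and 568 without day as a covariate. They numbered 483 higher and 263 lower with 7 d rats only and 134 and 150 with 30 d rats only, and the pooled decreases numbered 473 without the arrays with high Ttr, a setting chosen after seeing the data.

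The count at 30 d, 132 higher and 142 lower, was the least stable. It was 77 and 86 without the filter, 68 and 82 with unmoderated variances and 370 and 394 with array weights. The change differed between the days in 2 probe sets with array weights, those of Cdh4 and Cyb561 (limma adjusted p = 0.014 each), against 0. The causes were not tested.

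Leaving out each rat in turn gave 769 to 994 pooled increases and 585 to 779 pooled decreases, 431 to 659 and 378 to 481 that ran the same way at both days, 443 to 733 and 242 to 524 at 7 d and 63 to 219 and 69 to 186 at 30 d. The lowest count of increases was found without stimulated 30 d rat 2 when pooled, at both days and at 30 d, and without stimulated 7 d rat 5 at 7 d. The difference between days gave 0 or 1 probe set, Cdh4 without sham-operated 7 d rat 3. Of the 148 named genes, 14 lost the threshold without some single rat, 12 without the filter and 18 without the arrays with high Ttr. With 7 d rats only 49 of them lost it and with 30 d rats only 90, in fits of 10 rats each. Of 561 and 443 probe sets that ran the same way at both days, 411 and 299 did so without those arrays.

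Some genes not past the pooled threshold changed sign. Gja1 measured -0.0082 and Enkur -0.11 with 7 d rats only, Cdh4 measured -0.032 and Anxa7 -0.14 with 30 d rats only, and Ttr measured -0.29, Anxa7 -0.016 and Wfs1 -0.00052 without the arrays with high Ttr. With each rat left out in turn Anxa7 measured between -0.0099 (without stimulated 7 d rat 2) and 0.0316, and it was also below 0 without sham-operated 7 d rat 3 (-0.0015).

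With the replicate number as a block, 877 probe sets rose and 649 fell when pooled and 579 and 442 ran the same way at both days. The deviations of same-numbered rats from their group means correlated between -0.489 and 0.153, with 2 of 10 pairs above 0.1, so the numbers were not taken to pair the rats. The number of arrays limits the precision, and genes near the background have compressed changes.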
